A study of Mus musculus with 16 samples.

Results

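Lung endothelial cells of wild-type mice given saline are described here from 4 RNA-seq libraries, saline 1 to saline 4, of 16 libraries in the whole series. They were chosen by their labels alone (wild type, intratracheal saline, 24 h), so no measured value entered the choice. The mice were male C57/BL6J animals of 8 weeks. After digestion of the lung, cells carrying CD45 were removed on beads and cells carrying CD31 were then collected on beads, and total RNA was extracted. Of the other libraries, 6 came from wild-type mice given 10 mg/kg LPS intratracheally 24 h earlier and are used in a single comparison at the end. The remaining 6 came from Fgfr1 loxP/loxP and Fgfr1 iΔEC/iΔEC mice, the latter with Fgfr1 deleted through VE-cadherin-CreERT2, all of which received 2 mg/kg LPS, and they are not used here. No label says which mouse gave which library or whether mice were pooled, so the spread between the 4 libraries may be partly technical.

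The lung holds one of the largest endothelial surfaces of the body, most of it capillary. General capillary cells (marked by Gpihbp1 and Aplnr) act as the repair and vasoregulatory population, and aerocytes (marked by Car4 and Ednrb) form the thin wall through which gas is exchanged. Arterial, venous and lymphatic endothelium make up smaller shares, and alveolar type 2 cells, fibroblasts, pericytes and leukocytes lie against these vessels.

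Levels are the deposited FPKM, fragments scaled to gene length, so that genes of unlike length can be compared. Between libraries they are scaled by a size factor, the median of ratios over genes, and not by total reads. In these libraries the factor was 0.739, 1.24, 0.998 and 1.10. A row of 4 values is always that of saline 1, saline 2, saline 3 and saline 4. The libraries held 13478726, 18807007, 16184866 and 16731305 reads on annotated genes. The summed FPKM of nuclear protein-coding genes was 257055, 203537, 222418 and 204489, so it was highest in saline 1. Levels and list sums in FPKM were not corrected for this. Of 54532 genes in the table, 11192 were at 1 FPKM or more in all 4 libraries, 10117 of them protein-coding genes of the nuclear genome, and 21879 had no read in any of the 4. The median level of the 11192 genes was 7.88 FPKM. At least 100 FPKM in every library was reached by 265 genes. The number of genes with any read was 22492, 23292, 20258 and 29713, and in saline 4 it included 4816 genes seen with 1 read, against 764 in saline 3. A value of 3 reads or fewer was taken as the floor of detection, and this floor covers counting error only.

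The labelled cell type was borne out by its defining markers. All 14 markers of endothelium of every vessel were above 1 FPKM in each library, and together they reached 6603, 4105, 4974 and 4272 FPKM. Cdh5, the VE-cadherin of endothelial junctions, stood at 792, 669, 695 and 682 FPKM. Pecam1, which encodes the CD31 used for the bead selection, stood at 516, 348, 399 and 339 FPKM. Both were high in all 4 libraries, and the highest value of Cdh5 was 1.18 times its lowest. The pan-leukocyte gene Ptprc, which encodes the CD45 used for depletion, was low but present at 11, 7.44, 3.53 and 5.93 FPKM. Ddx3y on the Y chromosome was at 32.5, 19.8, 17.8 and 18.2 FPKM and Xist at or under 0.0176 FPKM, as in male tissue.

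The nuclear protein-coding transcriptome was headed by genes of antigen presentation, the endothelial surface and, from another cell type, surfactant. B2m, the light chain of MHC class I, had the highest mean, 1871 ± 313 FPKM (SD, n = 4). Cldn5, the claudin of endothelial tight junctions, came next at 1533 ± 893 FPKM (SD, n = 4), and its libraries were far apart at 2842, 938, 1362 and 989 FPKM. Sftpc, surfactant protein C of alveolar type 2 cells, followed at 1970.5, 930.5, 1564 and 799 FPKM, so that a transcript of epithelium ranked among those of the endothelial surface. Saline 1 was the highest and saline 4 the lowest library for Sftpc. Epas1, which encodes the hypoxia-inducible factor HIF-2α, came after it and was much steadier, at 1384, 1193, 1305 and 1318 FPKM. Plvap, the diaphragm protein of fenestrae and caveolae, was at 1189, 943, 1261 and 998 FPKM.

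The other genes of the 25 most abundant fell into a few groups. Endothelial surface and vesicle proteins were, as mean ± SD over the 4 libraries, Ly6a (1015 ± 255 FPKM), Tmem100 (846 ± 193 FPKM), Cav1 (656 ± 70.2 FPKM) and Cdh5. Class I genes were H2-D1 (997 ± 149 FPKM) and H2-K1 (700.5 ± 105 FPKM), and with them stood the interferon-inducible membrane protein Ifitm3 (741 ± 102 FPKM). Enzymes and regulators that act on blood-borne substrates were Hpgd, Ace and Thbd. Hpgd, which inactivates prostaglandins, was at 809, 932, 891 and 1012 FPKM. Ace, the angiotensin-converting enzyme, was at 679, 642, 609 and 629.5 FPKM, and Thbd, the thrombomodulin that turns thrombin towards anticoagulation, at 627, 520.1, 591 and 621 FPKM. For these last 3 genes the highest library was 1.25, 1.11 and 1.21 times the lowest. Aqp1, the water channel, and Cd36, the fatty acid and thrombospondin receptor, are described below with their families.

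Members expressed in most cell types were, again as mean ± SD, Eef1a1 (1050.0 ± 158 FPKM), Rplp1 (855 ± 214 FPKM), which was also the most abundant ribosomal protein gene, Itm2b (1020.4 ± 135 FPKM), Tmsb4x (817 ± 126 FPKM), Fth1 (762 ± 272 FPKM) and Serinc3 (649 ± 205 FPKM). Lyz2, the lysozyme of myeloid and alveolar type 2 cells, was at 1075, 453, 711 and 355 FPKM. Txnip, an inhibitor of thioredoxin and of glucose uptake, owed its place to a single library: it was at 1895, 499, 432 and 269 FPKM. The 25 genes took 11.6%, 9.97%, 10.6% and 9.44% of the summed FPKM of nuclear protein-coding genes, a mean of 10.4% ± 0.910 (SD, n = 4). The plot of the 25 genes by library shows the difference between steady genes such as Epas1 and Ace and the genes that were high in saline 1.

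**Figure D1:**
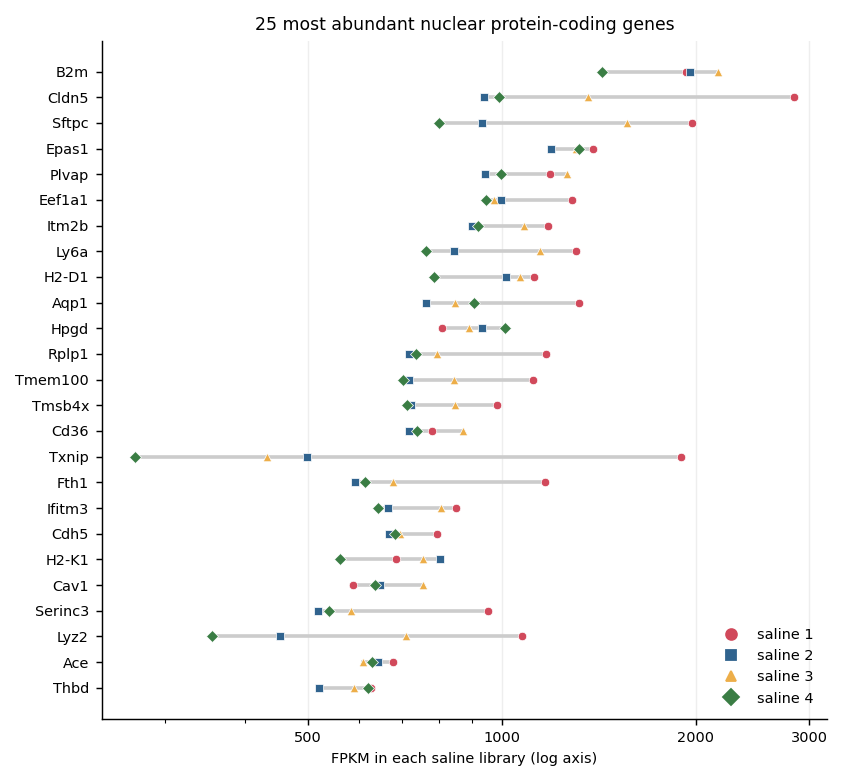
Levels of the 25 nuclear protein-coding genes with the highest mean FPKM (rows) in each saline library (one marker per library, log axis), with a grey bar from the lowest to the highest library. Epas1 and Ace cover narrow bars, whereas Cldn5 and Txnip reach 2842 and 1895 FPKM in saline 1 and stay lower in the other 3 libraries.

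Of the mitochondrially encoded genes the most abundant was mt-Co1, a subunit of cytochrome oxidase, which lay above all of these at 6860.4, 2798, 5417 and 2701 FPKM. Reads on the mitochondrial genome made up 2.51%, 1.22%, 2.50% and 1.21% of reads on genes, so that saline 1 and saline 3 had about the same share and so did saline 2 and saline 4. The 13 mitochondrially encoded genes summed to 19126, 7827, 17499 and 7864 FPKM. The 87 genes of cytosolic ribosomal proteins summed to 16372, 10837, 11366 and 10642 FPKM, which set saline 1 apart but not saline 3. As a share of nuclear protein-coding FPKM they were at 6.37%, 5.32%, 5.11% and 5.20%.

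The highest single value in the saline libraries belonged to a short gene annotated as a miRNA. Gm23935 was at 40985, 2913, 54701 and 4776 FPKM, and Gm24270, another gene of the same kind, at 924, 54.7, 1312 and 76.7 FPKM. Both were high in saline 1 and saline 3 and low in saline 2 and saline 4, as the mitochondrial share was. Their annotated transcripts are shown because they are the same sequence at different places in the genome, which makes the split of reads between them uncertain. The last line is Gm24187, a gene with one base changed, which was at 11.9, 0, 28.5 and 1.78 FPKM. Each is 57 bases long and is written 5′ to 3′, with the base that differs in capitals. The substitution is G11A, counted from 1 at the 5′ end with the base of Gm23935 first.
Gm23935: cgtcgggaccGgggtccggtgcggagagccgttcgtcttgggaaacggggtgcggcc
Gm24270: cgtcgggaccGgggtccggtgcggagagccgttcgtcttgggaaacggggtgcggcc
Gm24187: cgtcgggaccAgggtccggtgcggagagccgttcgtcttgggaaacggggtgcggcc
On GRCm38, Gm23935 lies at chr16:11144125-11144181 on the plus strand, Gm24270 at chr9:56223715-56223771 on the minus strand and Gm24187 at chr13:9834469-9834525 on the minus strand. Because FPKM divides by length, a gene of 57 bases weighs heavily. Gm23935 held 0.229%, 0.0195%, 0.344% and 0.0320% of reads on genes, yet genes of the miRNA class held 12.7%, 1.63%, 18.2% and 2.47% of summed FPKM. Shares of FPKM are therefore given below against nuclear protein-coding genes alone. CT010467.1, a gene annotated as ribosomal RNA on chromosome 17, was likewise high in saline 1 and saline 3 at 871, 118, 1051 and 123 FPKM. Lars2, annotated as the mitochondrial leucyl-tRNA synthetase, had the same order of libraries, at 74.9, 6.21, 98.2 and 9.89 FPKM. What the reads on Lars2 derive from was not tested.

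Transcription factors of the endothelial programme were detected widely. Of 232 factors in 12 families, 178 were at 1 FPKM or more in every library, 95 at 10 or more and 8 at 100 or more. Beside this, the factor family column of the table names 1451 protein-coding genes, of which 678 (46.7%) were detected by the same criterion, close to the 45.9% of all nuclear protein-coding genes. Epas1 was the most abundant factor in the list by a wide margin. It is the oxygen-sensing partner of Arnt, and Arnt itself was at 13.2, 11.5, 11.7 and 10.9 FPKM. Its paralog Hif1a, chosen after its values were seen, was at 14.6, 10.9, 10.2 and 10.5 FPKM, so that the mean of Epas1 was 113 times that of Hif1a. Ahr, the aryl hydrocarbon receptor, was at 21.1, 60.2, 66.3 and 60.2 FPKM, lower in saline 1 than in the other libraries.

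Among factors that set endothelial identity, 13 of 14 ETS genes with a mean of 5 FPKM or more lay within 2-fold across the 4 libraries, as did 7 of 12 genes of the GATA, TAL and LMO complex, 4 of 11 Kruppel-like and 2 of 6 SOX factors. Over all genes at that level the share was 85.3%, and differences between families were not tested. Erg, the ETS factor that holds endothelial cells in their differentiated state, was at 92, 103, 104 and 101 FPKM. Ets2 was at 178, 104, 122 and 113 FPKM, Ets1 at 52.9, 80.5, 67.6 and 79.3 FPKM and Elk3 at 44, 67.7, 81 and 67.7 FPKM. Of the 16 ETS genes 15 were at 1 FPKM or more in every library, and the exception was Etv2, the initiator of endothelial fate in the embryo, at 0, 0, 0 and 0.0485 FPKM. Gata2 and its partner Lmo2 stood at 121, 94.7, 89 and 91.4 and at 44, 104, 125 and 112 FPKM, while the cardiac and erythroid members Gata4, Gata5 and Gata1 were under 1 FPKM in every library. Klf2, which is induced by laminar flow, was at 227, 222, 202 and 260.1 FPKM, and its relative Klf4 was at 221, 79.4, 65.1 and 84.5 FPKM. Klf2 was even across libraries, and Klf4 was high in saline 1. Klf9 (127, 43.7, 37.1 and 50.5 FPKM) and Klf6 (74.1, 29.8, 26.8 and 30.2 FPKM) had the same shape as Klf4.

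The 4 SOX factors named next showed the opposite shape, while 1 of the 8 genes in the SOX list was highest in saline 1. Sox18, which acts in vessel and lymphatic formation, was at 78.1, 249, 343 and 257 FPKM, and Sox7 at 24.7, 74.1, 78.9 and 67 FPKM. Sox17, an arterial factor, was at 53.6, 85.1, 78 and 85.8 FPKM and Sox13 at 45.1, 56.5, 55.7 and 61.8 FPKM. All 4 were lowest in saline 1, and the share of all genes lowest there was not counted. Hey1, a target of Notch, was likewise lowest in saline 1 at 76.6, 139, 136 and 114 FPKM. The forkhead family was carried by Foxf1, the lung mesenchymal and endothelial factor needed for alveolar capillaries, at 859, 240.1, 322 and 251 FPKM. The next of its 18 members, Foxp1, was at 23.5, 18.8, 17 and 18.2 FPKM, and Foxm1, a factor of dividing cells, was under 1 FPKM in every library. Tbx2 and Tbx3, T-box factors of lung, were at 61.1, 89, 107 and 99.5 and at 64, 56.1, 73.8 and 58.4 FPKM, and the homeobox gene Hoxa5 was at 72.9, 54.1, 78 and 62.8 FPKM. Prox1, the master factor of lymphatic endothelium, was at 0.198, 0.280, 0.120 and 0.236 FPKM.

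Id3 and Id1, inhibitors of basic helix-loop-helix factors, stood at 135, 246, 344 and 261 and at 226, 182, 205 and 169 FPKM, and Smad6, an inhibitory SMAD, at 323, 147, 158 and 159.6 FPKM. Among nuclear receptors the clock repressor Nr1d1 led at 30.9, 50.3, 64.7 and 52.8 FPKM, followed by the oxysterol receptor Nr1h2 (41.2, 37.9, 39.3 and 39.7 FPKM), the thyroid hormone receptor Thra (25.4, 34.7, 37.8 and 38.1 FPKM) and the glucocorticoid receptor Nr3c1 (40.5, 29.3, 29.98 and 26.4 FPKM). Of the immediate early genes, Jun was high and even at 370.1, 349, 338 and 328 FPKM. Junb was at 212, 42.7, 54.9 and 37.3 FPKM and Ier2 at 142, 66, 87.9 and 69.7 FPKM, both highest in saline 1. Within 2-fold across the 4 libraries were 96 of the 146 factors with a mean of 5 FPKM or more (65.8%), against 85.3% of all 7475 genes at that level. Without saline 1 the shares were 97.3% and 96.2%.

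Of the receptors for vascular growth factors, Tek, Tie1 and Ptprb were even across libraries and Kdr was not. Tek, the receptor of angiopoietins, was at 246, 274, 269.9 and 268 FPKM, its orphan relative Tie1 at 245, 251, 285 and 269 FPKM, and Ptprb, the phosphatase that acts on Tek, at 259.7, 281, 232 and 285 FPKM. These 3 had nearly the same mean. Kdr, the main VEGF receptor, was at 64.8, 137, 169 and 131 FPKM, lowest in saline 1. The BMP9 axis was strong: Acvrl1 was at 440.1, 418, 494 and 450.2 FPKM, its co-receptor Eng at 730.2, 395, 462 and 431 FPKM and Bmpr2 at 79.5, 94.3, 90.4 and 92.2 FPKM. Of other receptor tyrosine kinases, Ephb4, the venous ephrin receptor, was at 111, 95.6, 103 and 101 FPKM, Kit, which general capillary cells carry, at 77.2, 98.2, 102 and 97.2 FPKM, and Fgfr3 at 74.4, 20.6, 24.2 and 21.4 FPKM. Notch receptors and ligands were led by Dll4 (25.2, 92, 115 and 92.9 FPKM) and Notch4 (73.7, 53, 65.3 and 63.3 FPKM), with Notch1 at 24.2, 21.5, 19.98 and 21.1 FPKM. Among Wnt receptors Fzd4 led at 268, 74.8, 72.9 and 74.2 FPKM, with the value of saline 1 far above 3 values that lay between 72.9 and 74.8 FPKM.

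G protein-coupled receptors were concentrated in a few members. Adgrf5, an adhesion receptor of lung endothelium and alveolar type 2 cells, was at 495, 528, 522 and 541 FPKM, and Adgre5 at 274, 372, 390.4 and 392 FPKM. Calcrl and Ramp2, which together form the adrenomedullin receptor, were at 272, 520.0, 510.0 and 519 and at 359, 273, 377 and 289.7 FPKM. S1pr1, the receptor through which sphingosine 1-phosphate tightens the barrier, was at 592, 242, 251 and 229 FPKM. Calcrl was lowest and S1pr1 highest in saline 1, while the other 3 libraries lay close together for both. Aplnr, the apelin receptor of general capillary cells, was at 81.2, 119.6, 138 and 120.4 FPKM and Ednrb, the endothelin receptor of aerocytes, at 48.1, 57.8, 88.3 and 59.6 FPKM. Adrb1, an adrenergic receptor, was at 32.2, 59.5, 63.9 and 63.5 FPKM, lowest in saline 1. Under 1 FPKM in every library were 13 of 25 lipid mediator receptors, 14 of 27 peptide receptors and partners, and 14 of 26 amine and purine receptors. Among them were Ptgir, the prostacyclin receptor, and Bdkrb1. At 1 FPKM or more in every library were 7, 12 and 5 genes of these families, against 45.9% of all nuclear protein-coding genes. The difference from that share was not tested.

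Scavenger receptors and lectins held the most abundant receptor transcript. Cd36 was at 779, 718, 869.9 and 739 FPKM, and Lyve1, a hyaluronan receptor, at 1229, 252, 434 and 236 FPKM. Cd36 varied little, whereas Lyve1 was high in saline 1. Among chemokine receptors Cxcr4 (28.6, 60.4, 61 and 54.5 FPKM) and the decoy receptors Ackr2 (44, 35.4, 48.6 and 34.9 FPKM) and Ackr3 (73.2, 23.9, 28.8 and 23 FPKM) led. Npr1, the receptor of atrial natriuretic peptide, was at 68.4, 72.4, 79 and 81.1 FPKM, and the clearance receptor Npr3 at 161, 22.5, 35.1 and 18.9 FPKM. Tnfrsf1a, the main TNF receptor, was at 126, 117, 142 and 125 FPKM and Fas at 166, 55.9, 74.1 and 61.6 FPKM. Ager was highest of the pattern recognition receptors at 155, 48.2, 98.3 and 49 FPKM, and it is also a marker of alveolar type 1 cells. Integrins were led by Itgb1 (269, 207, 207 and 202 FPKM), and Robo4, a guidance receptor of endothelium, was at 89.6, 58.6, 79.4 and 63.9 FPKM. In all, 206 of 334 receptor genes (61.7%) were at 1 FPKM or more in every library, against 45.9% of all nuclear protein-coding genes, and 21 were at 100 or more.

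Of 630 transporter and channel genes, 239 (37.9%) were at 1 FPKM or more in every library, against 45.9% of all nuclear protein-coding genes, and 10 were at 100 or more. Aqp1, the water channel of endothelium, was at 1316, 764, 847 and 906 FPKM, and Aqp5, the channel of alveolar type 1 cells and the other aquaporin of 11 that was detected in every library, was at 14.2, 5.13, 11.4 and 5.75 FPKM. Solute carriers were led by Slc43a3, a purine base carrier, at 236, 179, 197 and 180.1 FPKM and Slc3a2, the heavy chain of several amino acid exchangers, at 214, 122, 152 and 133 FPKM. Slco2a1, the prostaglandin transporter that delivers substrate to Hpgd, was at 113, 116, 121 and 117 FPKM. It was one of the steadiest of the 337 nuclear protein-coding genes with a mean of 100 FPKM or more, with a coefficient of variation of 3.16%.

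Ion pumps and channels came next. Atp2a3, a calcium pump of the endoplasmic reticulum, was at 269, 198, 199 and 197 FPKM. Scn7a, the sodium-sensing channel, was at 106, 187, 158 and 178 FPKM and the β-subunit Scn3b at 31.7, 63.1, 70.2 and 52.9 FPKM. Clic4 and Clic5, intracellular chloride channel proteins, were at 324, 160.1, 188 and 167 and at 97.7, 106, 109.8 and 107 FPKM. Of 94 potassium channel genes 10 were detected in every library, led by Kcnq1 at 14, 8.99, 11.5 and 10.2 FPKM, and the mechanosensitive channel Piezo1 was at 23.8, 17.9, 15.8 and 18.5 FPKM. Of sugar carriers, Slc2a1, the glucose carrier of the blood-brain barrier, was at 13.6, 3.69, 3.82 and 5.62 FPKM, and Slc50a1, a sugar carrier of the Golgi, at 70.2, 64, 86.5 and 66.1 FPKM. Slc16a9, a carnitine carrier, was at 23.8, 48.3, 58.6 and 51.5 FPKM, Abcb1a, the P-glycoprotein drug pump, at 34.9, 52.5, 47 and 51.2 FPKM and Slc29a1, the equilibrative nucleoside transporter, at 38.4, 26.9, 31.1 and 30.1 FPKM. Slc6a2, the noradrenaline transporter of pulmonary veins and capillaries, was at 45.6, 21.8, 7.73 and 22.9 FPKM, and its lowest library was saline 3.

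**Figure D2:**
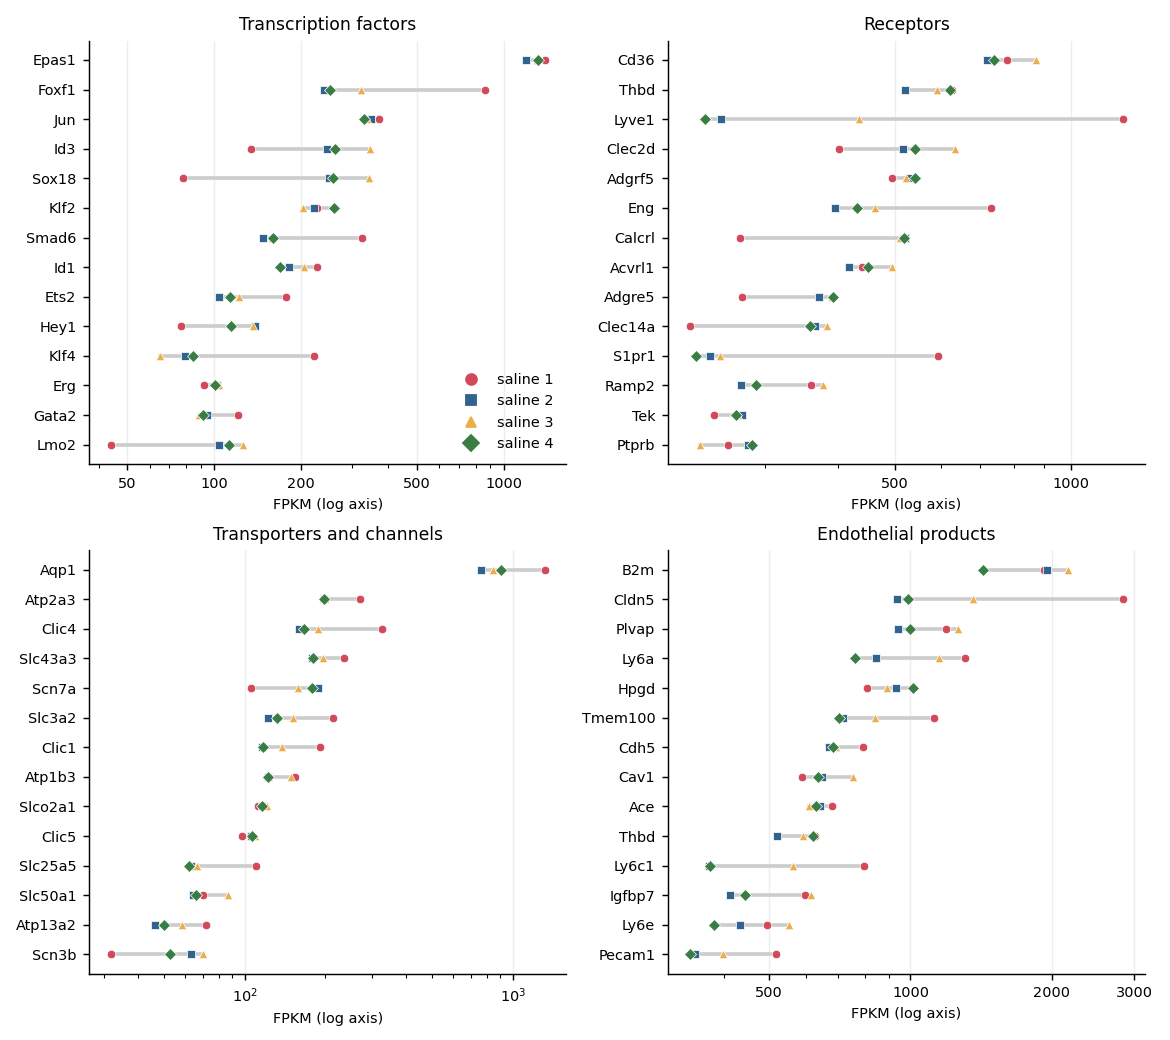
Levels of 14 of the most abundant genes of each of the transcription factor, receptor, transporter and endothelial product lists (rows) in each saline library (one marker per library, log axis), with a grey bar from lowest to highest. Epas1, Cd36 and Aqp1 head the first 3 panels, the bars of Foxf1 and Lyve1 end at saline 1 on the right, and that of Sox18 ends at saline 1 on the left.

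The stretch of 250 bases before the RefSeq start is shown for the most abundant receptor and transporter gene and, chosen after its values were seen, for Cldn5, so that the upstream sequence of highly expressed genes can be read beside their levels. A set of 6 short motifs was searched on both strands: TATAAA for the TATA box, CGGAAG for ETS factors, GATAAG for the GATA family, ACGTG for the hypoxia response, CACCC for Kruppel-like factors and ACAAAG for SOX factors. No match overlapped another in these windows. Capitals mark the matches, the lines run 5′ to 3′ on the strand of the gene, and the sequences are from RefSeq on GRCm38.p6.
Cldn5: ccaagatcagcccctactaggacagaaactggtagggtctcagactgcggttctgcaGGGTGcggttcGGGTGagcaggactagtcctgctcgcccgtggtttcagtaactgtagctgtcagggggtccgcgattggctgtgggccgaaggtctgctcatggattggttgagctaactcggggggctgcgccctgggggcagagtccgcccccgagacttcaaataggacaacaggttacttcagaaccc
Cd36: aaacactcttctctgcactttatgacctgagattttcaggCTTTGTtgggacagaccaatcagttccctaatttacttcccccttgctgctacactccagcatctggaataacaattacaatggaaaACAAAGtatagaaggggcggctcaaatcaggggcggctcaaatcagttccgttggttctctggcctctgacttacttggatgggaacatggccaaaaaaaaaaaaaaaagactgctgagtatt
Aqp1: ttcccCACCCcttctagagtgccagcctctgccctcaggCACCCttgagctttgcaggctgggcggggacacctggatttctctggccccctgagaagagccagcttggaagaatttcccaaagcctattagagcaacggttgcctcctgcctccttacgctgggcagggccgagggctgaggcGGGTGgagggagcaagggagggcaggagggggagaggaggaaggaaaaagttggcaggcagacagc
The windows are chr16:18776597-18776846 on the plus strand for Cldn5, chr5:17835897-17836146 on the minus strand for Cd36 and chr6:55336049-55336298 on the plus strand for Aqp1. The Cldn5 start is also a GENCODE start, whereas the nearest GENCODE starts of Cd36 and Aqp1 lie 179 and 133 bases further downstream. The Cldn5 and Aqp1 windows held matches to CACCC, 2 and 3 of them, a motif present in 52.01% of 32851 windows of this length. The Cd36 window held 2 matches to ACAAAG, present in 16.5% of windows. The other motifs (TATAAA in 12.4% of windows, CGGAAG in 13.6%, GATAAG in 6.55% and ACGTG in 16.6%) had no match in these 3 windows.

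Products that act in blood or matrix were abundant beside those already named. After Cldn5 and Plvap, Ly6a and Tmem100 led the junction and surface genes. Of 95 endothelial products 86 (90.5%) were at 1 FPKM or more in every library, against 45.9% of all nuclear protein-coding genes, and 35 were at 100 or more. Igfbp7, an insulin-like growth factor binding protein of the vessel wall, was at 597, 412, 614 and 443 FPKM, Egfl7, a secreted endothelial factor, at 288, 329.6, 502 and 367 FPKM and Col4a1, a chain of basement membrane collagen, at 419, 293, 276 and 276 FPKM. Ece1, which activates endothelins, was at 275, 172, 197 and 182 FPKM. Edn1, endothelin itself, was at 280.4, 57.7, 43.5 and 46.9 FPKM, its value in saline 1 being 4.86 times the next highest. F8, a coagulation factor, was under 1 FPKM in every library.

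Markers of the capillary types were detected together, and those of large vessels and lymphatics unevenly. All 8 general capillary markers were at 1 FPKM or more in every library, with sums of 2559, 1844, 2133 and 1923 FPKM, led by Plvap. Of nuclear protein-coding FPKM these sums were 0.995%, 0.906%, 0.959% and 0.940%. All 8 aerocyte markers were also at 1 FPKM or more in every library, with sums of 610.1, 619, 903 and 655 FPKM. Their shares were 0.237%, 0.304%, 0.406% and 0.320%. Car4, a carbonic anhydrase on the aerocyte surface, was at 159.6, 153, 268 and 167 FPKM, and Apln at 18.8, 28.3, 43.8 and 30.3 FPKM, both highest in saline 3. Of 10 arterial markers 9 were detected in every library, with Gja5 at 12.9, 10.7, 10.5 and 7.42 FPKM and Gja4, both connexins, at 186, 127, 106 and 111 FPKM. Venous markers were lower: Vwf, the von Willebrand factor, was at 117, 81.6, 52.8 and 73.6 FPKM, Selp, P-selectin, at 7.18, 2.72, 0.787 and 1.54 FPKM and Ackr1, the chemokine receptor of venules, at 8.12, 0.997, 0.0399 and 2.31 FPKM. Saline 3 was the lowest library for 6 of the 9 venous markers, these 3 among them, and for 22.4% of nuclear protein-coding genes with a read. The most abundant venous marker, Ephb4, was not lowest there. In bulk samples fewer cells of a type and less RNA per cell cannot be told apart.

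Of the 8 lymphatic markers 5 were at 1 FPKM or more in every library. Lyve1 made up 91.2% of their summed level, while Prox1 stayed under 0.3 FPKM, Reln was at 0.0701, 0.175, 0.0519 and 0.208 FPKM and Mmrn1 at 1.13, 1.61, 0.506 and 1.82 FPKM. Pdpn, which alveolar type 1 cells also carry, was at 8.90, 2.31, 5.61 and 2.85 FPKM and Fgl2, a fibrinogen-like protein, at 23.8, 9.63, 7.35 and 8.89 FPKM. Flt4, the VEGF-C receptor that lung capillaries carry as well, was at 31.8, 19.9, 24.1 and 20.8 FPKM. Ccl21a, a chemokine of lymphatics and lymphoid tissue, was at 1.13, 5.51, 5.85 and 22.2 FPKM and highest in saline 4. The defining lymphatic factor was near 0 in every library in which Lyve1 was high.

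Outside endothelium the highest summed level was that of alveolar type 2 epithelium. All 10 markers of alveolar type 2 cells were at 1 FPKM or more in every library, with sums of 3595, 1678, 2703 and 1391 FPKM or 1.40%, 0.824%, 1.22% and 0.680% of nuclear protein-coding FPKM. Sftpc made up 56.2% of that list, and Sftpb and Sftpa1 were at 203, 107, 163 and 89.9 and at 200.3, 86.9, 140.2 and 67.7 FPKM. Far lower was the lipid transporter Abca3, chosen after its values were seen, at 10.8, 15.1, 13.5 and 14 FPKM. Epcam, which every epithelial cell carries, was at 3.96, 1.62, 2.06 and 0.946 FPKM. The order saline 1, saline 3, saline 2, saline 4 held for Sftpc, Sftpa1, Sftpb and Lyz2, but Abca3 and Etv5 did not follow it. Alveolar type 1 markers Ager and Hopx (129, 69.1, 130.3 and 83.1 FPKM) were also present. Scgb1a1, the secretoglobin of club cells, was at 259, 137, 115 and 53.5 FPKM and Foxj1, the factor of ciliated cells, at 1.27, 0.396, 0.704 and 0.174 FPKM.

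Leukocyte genes remained after the CD45 depletion, and their makeup differed between libraries. The neutrophil list summed to 1430.0, 78.3, 323 and 83.6 FPKM, with S100a9 at 799, 38.5, 162 and 37.4 FPKM, S100a8 at 332, 16.7, 62.8 and 16 FPKM and Retnlg at 144, 7.24, 51.2 and 14.2 FPKM. Ly6g, which defines neutrophils in the mouse, was at 1.60, 0.336, 0.951 and 0 FPKM. The sum in saline 1 was 4.43 times that in the next library, saline 3. The B cell list had another order, with sums of 476, 612, 89.8 and 509.9 FPKM, and Cd79a, a chain of the B cell receptor complex, was at 60.4, 79.6, 13.2 and 65.2 FPKM. T cell markers summed to 30.8, 29.2, 4.01 and 29.3 FPKM, with Cd3e at 0.5002, 0.953, 0.124 and 0.897 FPKM. Both lymphocyte lists were lowest in saline 3. Of macrophage and monocyte genes, Chil3, a secreted chitinase-like protein of alveolar macrophages, was at 91.4, 65, 115 and 52.3 FPKM, Marco at 0, 1.67, 2.76 and 4.72 FPKM, Csf1r at 14.1, 5.39, 5.41 and 3.60 FPKM and C1qa at 1.74, 0.913, 0.485 and 2.59 FPKM. Platelet and erythroid genes were traces, with Pf4 at 12.2, 9.97, 6.29 and 7.89 FPKM and Hba-a1 at 13.3, 2.78, 5.72 and 6.07 FPKM.

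Of 12 fibroblast markers 9 were at 1 FPKM or more in every library, of 8 pericyte markers 6 and of 8 smooth muscle markers 3. Inmt, a methyltransferase of lung fibroblasts, made up 74.2% of the fibroblast list at 232, 352, 253 and 408 FPKM, whereas Col1a1 was at 13.4, 12.9, 8.36 and 11.5 FPKM and Pdgfra at 13.8, 10.9, 4.83 and 10.2 FPKM. Pdgfrb, which defines pericytes, was at 15.5, 17.4, 8.43 and 20.4 FPKM, and the 8 pericyte markers summed to 94.5, 90.8, 46.5 and 102 FPKM. All 8 pericyte markers and 10 of the 12 fibroblast markers were lowest in saline 3. So were 22.4% of the 18686 nuclear protein-coding genes with a read in any saline library. Acta2, the actin of smooth muscle, was at 77.7, 15.1, 8.90 and 6.59 FPKM. Mesothelial Wt1 had no read in any of the 4 libraries, and Sox10 of Schwann cells was at 0, 0.0593, 0.110 and 0.05 FPKM. Scn7a made up 98.1% of the Schwann cell list, so the level of that list does not speak for Schwann cells.

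**Figure D3:**
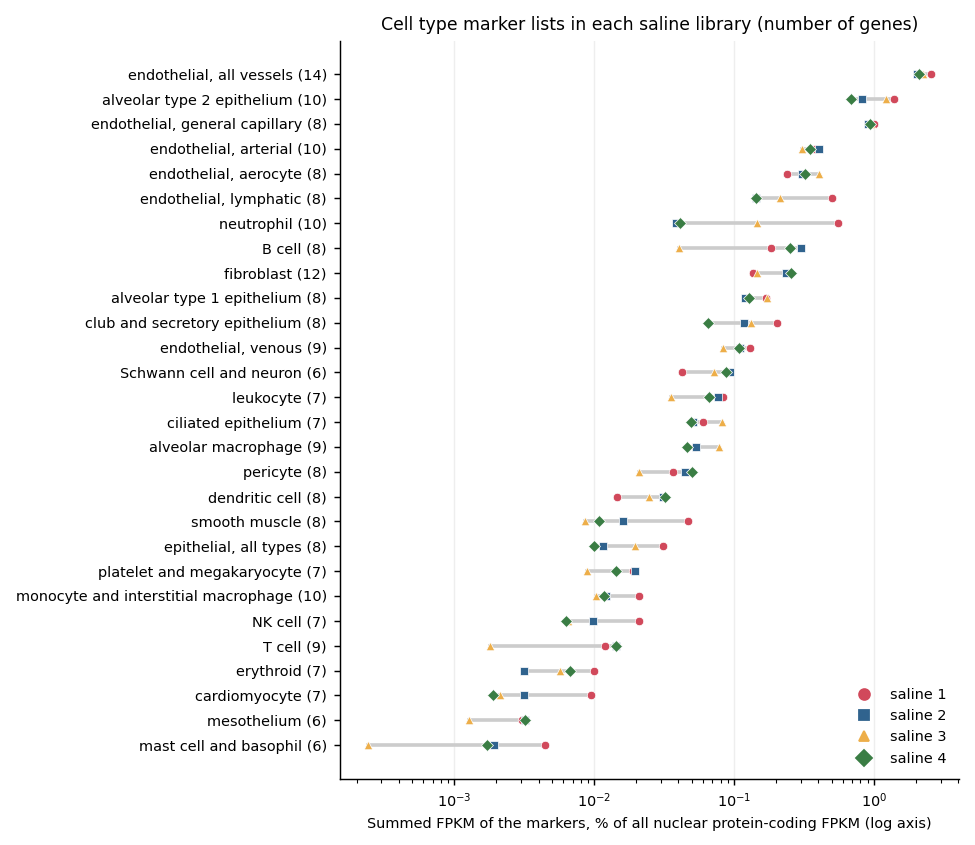
Summed FPKM of each cell type marker list (rows, with the number of genes) as a percent of all nuclear protein-coding FPKM in each saline library (one marker per library, log axis), ordered by mean. The pan-endothelial list lies at 2.02% to 2.57%, alveolar type 2 markers come second, the neutrophil list is highest in saline 1, and the B cell and T cell lists are lowest in saline 3.

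The 4 libraries were not equally alike. Across the 7475 genes with a mean of 5 FPKM or more, saline 2 and saline 4 were the closest pair, with 0.575% of genes differing 2-fold or more on the log2(FPKM + 1) scale and a Pearson r of 0.981 across genes. Saline 3 differed from them at 2.81% and 2.72% of genes. Saline 1 differed from saline 2, saline 3 and saline 4 at 9.99%, 10.8% and 9.62% of genes, with r between 0.867 and 0.874. Genes are not independent replicates, and these values are given as a description. On the same scale, genes 4-fold or more above or below the median of the 3 other libraries numbered 142 and 24 in saline 1, 3 and 14 in saline 2, 10 and 51 in saline 3, and 4 and 11 in saline 4. The plot of saline 1 and saline 3 against the other libraries shows these genes.

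**Figure D4:**
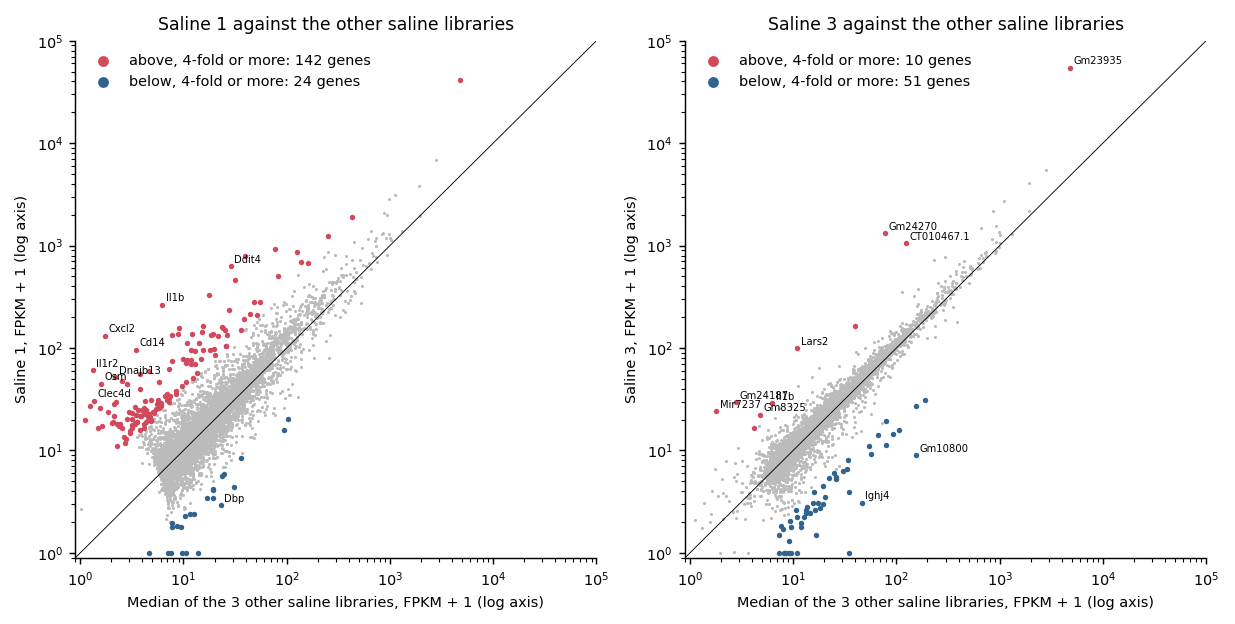
FPKM + 1 of each of 7475 genes in saline 1 (left) and saline 3 (right) against the median of the 3 other saline libraries, on log axes, with the line of equality. Genes 4-fold or more above (142 and 10) or below (24 and 51) are coloured, and those furthest apart with a value in that library are named.

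The genes apart in saline 1 included neutrophil markers and some of the immediate early, stress and heat shock genes. The widest gaps were in Cxcl2, a neutrophil chemokine, at 131, 0.743, 5.58 and 0.590 FPKM, the decoy receptor Il1r2 at 59.5, 0.308, 0.763 and 0.320 FPKM, the cytokine Il1b at 265, 4.46, 27.9 and 5.25 FPKM and the cytokine Osm at 43.8, 0.597, 1.40 and 0.559 FPKM. Cd14, the LPS co-receptor of myeloid cells, was at 95.7, 2.16, 3.42 and 2.46 FPKM. All 10 neutrophil markers had their highest value in saline 1, as did 37.8% of the 18686 nuclear protein-coding genes with a read in any saline library. Ddit4, an inhibitor of mTORC1 that rises with stress and glucocorticoid, was at 627, 37.8, 15.9 and 27.6 FPKM. Saline 1 was also the highest library for 19 of 27 immediate early and stress factors and 15 of 18 dissociation and heat shock genes. The lists overlap, with Jun the most abundant gene of each, so the counts are not separate. The genes 4-fold or more above needed a mean of 5 FPKM or more that includes saline 1, so low genes could enter through that library alone. The clock gene Per1 was also above, at 134, 17.9, 10.8 and 17.5 FPKM, and so, chosen after their values were seen, were the salt- and glucocorticoid-regulated kinase Sgk1 at 281, 54.5, 42.3 and 53.8 FPKM and the cell cycle inhibitor Cdkn1a at 463, 30.3, 34.5 and 30.2 FPKM. Among the genes 4-fold or more above were themselves 9 of 9 neutrophil markers with a mean of 5 FPKM or more. So were 4 of 14 dissociation and heat shock genes at that level. The part of these lists in the result was not tested.

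Genes far below in saline 1 included Dbp, a clock output factor, at 1.92, 19.1, 25.2 and 22 FPKM, and, chosen after their values were seen, Prickle1, a planar polarity gene, at 14.9, 88.5, 98.3 and 94.1 FPKM and the death ligand Tnfsf10 at 19.4, 104, 102 and 89.9 FPKM. Among the 3 other libraries the highest value was 1.32, 1.11 and 1.15 times the lowest for these genes. The other 4 of the 5 furthest below were 3 short noncoding genes and the immunoglobulin segment Ighj3, none of which had a read in saline 1. In saline 3 many of the genes far below were of lymphocytes: 26 of the 51 were immunoglobulin or T cell receptor segments, and 7 of 8 B cell markers considered were among the 51, against 0.682% of all 7475 genes. Igkj1, a light chain joining segment, was at 31.8, 40.4, 2.95 and 33.4 FPKM. The 10 genes far above in saline 3 were led by Gm24270, Mir7237 and Gm23935. Saline 4 stood out through Glycam1, a mucin of high endothelial venules, at 1.70, 0.0212, 0.0263 and 56.6 FPKM, and Gm10800, a predicted gene, at 154, 0.274, 7.97 and 816 FPKM. Fcer2a, a B cell receptor for IgE, was the single protein-coding gene above in saline 2 at 4.03, 22.4, 1.99 and 18.5 FPKM, but saline 4 was close to it.

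Other genes barely moved. Among the 337 nuclear protein-coding genes with a mean of 100 FPKM or more, the median coefficient of variation was 19.4%, and the lowest was 1.48% in Sptbn1, a spectrin, at 179.7, 181, 176 and 183 FPKM. Jcad, a junctional protein of endothelium, was at 118, 116, 116 and 120.0 FPKM and Timp2, an inhibitor of matrix proteases, at 119.5, 119, 124 and 122 FPKM. These 3 were chosen after their values were seen, as the lowest of the 337. Over all 7475 genes the median coefficient of variation was 15.2%, and it was 7.98% without saline 1.

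Where the saline transcriptome differs from the rest of its own experiment was asked against the 6 LPS libraries with limma on log2(FPKM + 1) over 14893 genes with a mean of 0.5 FPKM or more. A gene was called at a Benjamini-Hochberg adjusted p of 0.05 or less and a difference of at least 1 on that scale. Over all genes 6.79% were called higher and 11.9% lower in saline. Of the 202 transcription factors tested 30 were higher and 30 lower, of the 264 receptors 50 and 63, and of the 318 transporters 23 and 41. The shares of receptors (18.9% higher and 23.9% lower) and of factors (14.9% in each direction) lay above those over all genes tested. Those of transporters (7.23% and 12.9%) were close to them. The genes tested include low genes, whose changes this scale understates, and the lists were not matched to them in level. With a mean of at least 5 FPKM, 518 of 7765 genes were higher and 1338 lower. The split of calls depends on scaling. As deposited, 36.4% of all calls were higher in saline. The share was 60.8% when each library was brought to the same summed FPKM of all genes. It was 6.66% when libraries were scaled on the 14 endothelial markers. The median difference of all genes was -0.01, 0.26 and -0.48 in these fits. The summed FPKM includes genes of the miRNA class, which held 12.7%, 1.63%, 18.2% and 2.47% of it in saline and 1.30% to 2.12% in LPS.

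The clock repressor Nr1d1 and the apelin receptor Aplnr headed the factors and receptors that were higher in saline. Nr1d1, at 30.9, 50.3, 64.7 and 52.8 FPKM in saline, lay between 0.521 and 3.69 FPKM, with a median of 1.79, in LPS, a log2 difference of 4.27 ± 0.31 SE, limma adjusted p = 2.18e-06. Aplnr lay between 4.20 and 10.8 FPKM, with a median of 6.68, in LPS, below all 4 saline values given above, and differed by 3.84 ± 0.24 SE, limma adjusted p = 1.1e-06. Ednrb lay between 5.39 and 15.6 FPKM, with a median of 11.9, in LPS and differed by 2.44 ± 0.28 SE, limma adjusted p = 5.06e-05. For these 3 genes, chosen for their large differences, every saline value lay above every LPS value, as in 16.7% of all genes tested. Hey1 (2.09 ± 0.26 SE, limma adjusted p = 7.57e-05) and Sox11, a SOX factor at 5.95, 11.9, 15.9 and 14.2 FPKM in saline (2.06 ± 0.25 SE, limma adjusted p = 7.51e-05), were also higher than in LPS without overlap. Dbp differed by 2.77 ± 0.51 SE, limma adjusted p = 0.00103, and Npr3 by 2.94 ± 0.53 SE, limma adjusted p = 0.000873, although the saline values of each were spread widely. Without saline 1 their differences were 3.52 and 2.28. Itga8, an integrin chain at 9.02, 11.9, 5.52 and 10.5 FPKM in saline, differed by 1.98 ± 0.23 SE, limma adjusted p = 5.91e-05. Some receptor families are given here for their large shares of calls. Of VEGF, angiopoietin and neuropilin receptors 7 of 8 were higher and none lower. Tek, Tie1, Kdr and Ptprb of this family are also among the endothelial markers whose sums are given below, so those results share genes. In the guanylyl cyclase list, which also holds the clearance receptor Npr3, 5 of 5 genes tested were higher and none lower. Of pattern recognition receptors 9 of 13 were lower and none higher. Other families were mixed, such as integrins with 3 of 21 higher and 7 lower. Over all genes 6.79% were higher and 11.9% lower. Scaled on the endothelial markers, 14 receptors in place of 50 were higher in all.

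The transporters highest in saline relative to LPS were Scn7a (2.17 ± 0.31 SE, limma adjusted p = 0.000195), which lay between 23.3 and 62.3 FPKM, with a median of 26.1, in LPS, the lipid transporter Abca8a at 4.29, 8.26, 4.69 and 5.87 FPKM in saline (1.91 ± 0.17 SE, limma adjusted p = 8.6e-06), the lactate carrier Slc5a12 at 2.23, 2.95, 4.56 and 3.15 FPKM in saline (1.90 ± 0.15 SE, limma adjusted p = 3.98e-06) and Slc6a2 (1.72 ± 0.49 SE, limma adjusted p = 0.0127). Slc6a2 was the one of these 4 whose groups overlapped, through saline 3, and its call was lost with a replicate block, as given at the end. The factors, receptors and transporters lowest in saline relative to LPS included several genes of myeloid cells. Spi1, the myeloid master factor, was at 19.6, 6.59, 8.19 and 4.07 FPKM in saline and between 108 and 297 FPKM, with a median of 214, in LPS, a difference of -4.46 ± 0.37 SE, limma adjusted p = 5.59e-06. Cebpb, a factor of the acute phase response, was at 135, 11.1, 17.8 and 10.03 FPKM in saline, highest in saline 1. Cebpb, Nr4a1 and Irf7, the last 2 factors of the immediate early and interferon responses, had log2 differences of -4.29, -3.80 and -3.35. Cd14 lay between 218 and 864 FPKM, with a median of 401, in LPS and differed by -5.76 ± 0.86 SE, limma adjusted p = 0.000268. Itgam, Ptafr and Csf1r, receptors of myeloid cells, differed by -5.08, -4.82 and -4.81. Slc11a1, the metal transporter of phagosomes, was at 8.71, 1.10, 1.51 and 0.960 FPKM in saline, lay between 69 and 183 FPKM, with a median of 112, in LPS and differed by -5.12 ± 0.42 SE, limma adjusted p = 5.26e-06. Slc16a3, a lactate exporter, and the amino acid carriers Slc7a11 and Slc7a8 differed by -3.62, -2.99 and -2.76. The highest limma adjusted p among the genes given here without one was 0.000207, that of Cebpb. Without saline 1 the differences of Cd14, Cebpb and Slc16a3 were -6.94, -5.12 and -4.29. In all 12 of these lower genes, which were chosen for their large differences, the 4 saline values lay below the 6 LPS values, as in 22.7% of all genes tested. The 7 leukocyte markers, all lower in saline, summed to between 78.2 and 215 FPKM in saline and between 634 and 1529 in LPS, and the 14 endothelial markers to between 4105 and 6603 against between 1762 and 4091. The part of these shifts in cell makeup in the differences above was not tested.

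**Figure D5:**
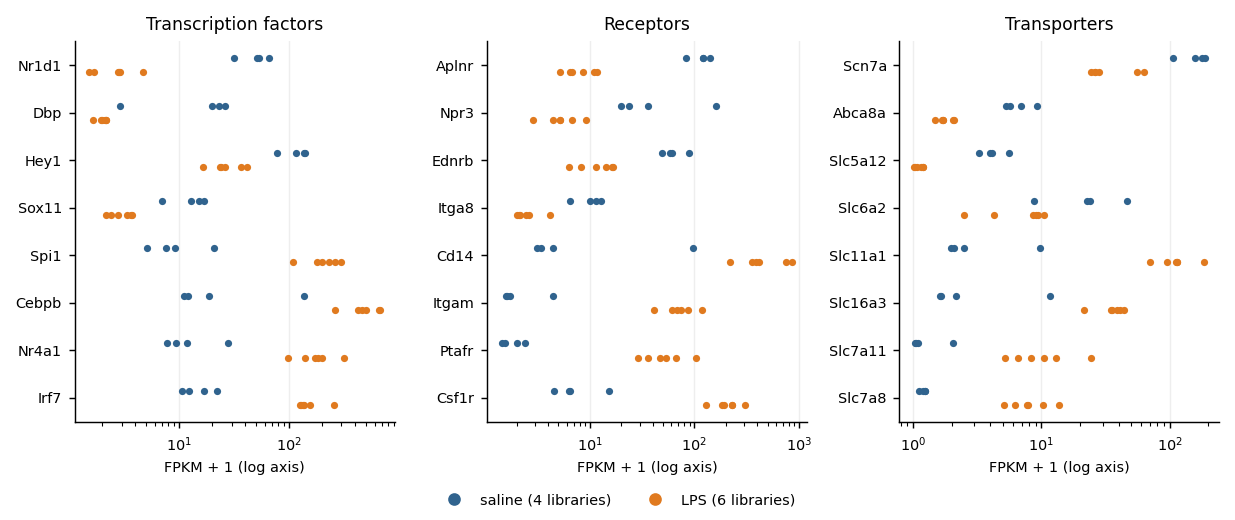
FPKM + 1 (log axis) in each of the 4 saline (blue) and 6 LPS (orange) libraries for the transcription factors, receptors and transporters with the largest called differences, 4 higher and 4 lower in saline per panel. The groups do not overlap in any row except Slc6a2.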

How the data were processed

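Lung endothelial RNA was sequenced on a NovaSeq 6000, and per the labels and the study's methods the authors aligned reads with HISAT2 2.0.5 to GRCm38/mm10 and counted them per gene with featureCounts 1.5.0-p3. The values used here are the deposited FPKM values, 1 per gene and library, made by the authors from those counts. Multiplied by gene length and a factor for each library, 100% of values gave whole reads (tolerance 0.02 reads), and these recovered reads gave the depth per library, 13478726 to 18807007 in saline, which limits the precision of low genes to counting error. Of the 54532 gene IDs 54409 were found in GENCODE M21, 53499 with the same start and end, and promoters were read from RefSeq tables on GRCm38.p6.

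Groups were taken from the labels. Levels and their spread over the 4 saline libraries are descriptions. Saline and LPS were compared with limma 3.58.1 (R 4.3.3) on log2(FPKM + 1) where the average over these libraries reached 0.5 FPKM, with Benjamini-Hochberg adjustment, a threshold of 0.05 and a difference of at least 1. That scale understates changes of low genes. Other pseudocounts, filters, scalings, a count-based fit (limma-voom on the recovered reads), a replicate block and leaving out each library were tried. Separate animals are not named in the labels, so p-values measure the spread between these samples.

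The lists and members were chosen with earlier results of these data known. Named genes are the 25 most abundant, up to 4 most abundant members per family with near-absent members, the first 4 markers per cell type, the genes furthest apart in each library and the largest called differences from LPS. Outside that rule, Hif1a, Selp, Abca3, Etv5, Inmt, Ccl21a, Reln, Pdpn, Fgl2, Igkj1, Sgk1, Cdkn1a, Prickle1, Tnfsf10, Edn1, Sptbn1, Jcad and Timp2 were chosen after their values were seen. A few members of the lists are not reported here.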

Additional observations from a re-analysis of the deposited data

Results flagged for a closer look

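In a group of 4 or 6 libraries a value is listed here when its gap to the nearest other library is large against the range of the group by Dixon's criterion. Of 301 series of library measures, list sums and genes named above, 66 met it (21.9%). Chance alone lists about 1 in 20 groups, but many of the genes were named because a library stood apart and all series share the same libraries, so the share is not to be read against that rate. Saline 1 was the library apart in 58, as the highest in 52 and the lowest in 6, saline 3 in 5, saline 4 in 2 and saline 2 in 0.

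In saline 3, apart as the highest of its group, were the summed levels of marker or gene lists endothelial, aerocyte (cell type) at 903, GATA, TAL and LMO complex (transcription factor) at 477 and zinc, iron and copper (transporter) at 229 FPKM. Apart as the highest of its group, saline 1 had the summed levels of marker or gene lists monocyte and interstitial macrophage (cell type) at 54.1, smooth muscle (cell type) at 121, cardiomyocyte (cell type) at 24.4, forkhead (transcription factor) at 1001, immediate early and stress (transcription factor) at 1956, Wnt and Hedgehog (receptor) at 426 and lipid mediator GPCR (receptor) at 661 FPKM. Next were guanylyl cyclase (receptor) at 274, cation-chloride (transporter) at 62.9, P-type ATPase (transporter) at 1019, cytosolic ribosomal protein (other) at 16372, dissociation and heat shock (other) at 2199 and inflamed endothelium (other) at 228 FPKM. In saline 3, apart as the lowest of its group, was the summed level of the list T cell (cell type) at 4.01 FPKM. Apart as the highest of its group, saline 1 had the genes Ackr3 at 73.2, Acta2 at 77.7, Atp2a3 at 269, Cd14 at 95.7, Cdkn1a at 463, Cebpb at 135 and Clic4 at 324 FPKM. Next were Col4a1 at 419, Cxcl2 at 131, Ddit4 at 627, Ddx3y at 32.5, Edn1 at 280.4, Eef1a1 at 1285 and Fas at 166 FPKM. After these came Fgfr3 at 74.4, Fgl2 at 23.8, Foxf1 at 859, Fth1 at 1167, Fzd4 at 268, Hif1a at 14.6 and Il1b at 265 FPKM. Then followed Il1r2 at 59.5, Itgb1 at 269, Junb at 212, Klf4 at 221, Klf6 at 74.1, Klf9 at 127 and Npr3 at 161 FPKM. Beyond these were Osm at 43.8, Per1 at 134, Rplp1 at 1173, S100a8 at 332, S100a9 at 799, S1pr1 at 592 and Serinc3 at 953 FPKM. The last were Sgk1 at 281, Slc11a1 at 8.71, Smad6 at 323 and Txnip at 1895 FPKM. In saline 1, apart as the lowest of its group, were the genes Adgre5 at 274, Adrb1 at 32.2, Ahr at 21.1, Calcrl at 272, Prickle1 at 14.9 and Tnfsf10 at 19.4 FPKM. In saline 3, apart as the highest of its group, was the gene Car4 at 268 FPKM. In saline 4, apart as the highest of its group, were the genes Etv2 at 0.0485 and Glycam1 at 56.6 FPKM. In LPS 6, apart as the highest of its group, was the gene Itga8 at 3.18 FPKM.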

How the results depend on the processing

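The genes higher in saline than in LPS numbered 1011 and those lower 1768. With each library brought to the same summed FPKM of all genes the higher count was 1840. For transcription factors it was 59 in place of 30, for receptors 76 in place of 50 and for transporters 36 in place of 23. With scaling on the endothelial markers, an alternative chosen after seeing the data, the counts were 273, 12, 14 and 11 in that order, and 3824 genes were lower. By limma-voom on recovered reads 2006 genes, 48 factors and 45 transporters were higher. With a mean of at least 5 FPKM these were 518, 19 and 9, and with a pseudocount of 0.1 they were 1840, 46 and 42. With no fold limit 3529 genes, 81 factors, 102 receptors and 82 transporters were higher and 4399 genes lower, as fewer criteria had to be met. Apart from the limit on fold and the filter on low values, the cause was not tested. Leaving out each library in turn gave 910 to 1107 higher and 1641 to 1947 lower.

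The number of genes at 1 FPKM or more in every saline library was 11192 and became 6379 at 5 FPKM. The 25 most abundant genes took 10.4% of FPKM and 7.86% of reads. Genes apart numbered 166 in saline 1, 17 in saline 2, 61 in saline 3 and 15 in saline 4. They became 301, 39, 109 and 34 at a mean of at least 1 FPKM and 61, 11, 23 and 9 at a mean of at least 20 FPKM, and 27 in saline 2 and 27 in saline 4 with a pseudocount of 0.1. Leaving out another library gave 13 to 53 for saline 2, with 26 without saline 3 and 53 without saline 4, and 5 to 54 for saline 4, with 5 without saline 1, 54 without saline 2 and 34 without saline 3.

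Saline and LPS libraries share replicate numbers, but deviations of same-numbered libraries from their group means correlated at 0.10, -0.16, -0.21 and -0.12, so the numbers were not taken as pairs. With the replicate block 1063 genes, 34 factors, 57 receptors and 24 transporters were higher and 1925 genes lower. Slc6a2 lost its call there, at a log2 difference of 1.93 and a limma adjusted p of 0.0518. No named difference from LPS changed direction under the alternatives run. Genes with 3 reads or fewer in a library are limited by depth.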
